A study of Drosophila melanogaster with 6 samples.

Results

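The 7 transcription factor genes described here pattern the notum, the part of the Drosophila melanogaster wing imaginal disc that forms the dorsal thorax. They are pnr, ush and tup of the medial notum, eyg of the scutum, and ara, caup and mirr, the Iroquois complex genes of the lateral notum. In counts and comparisons eyg is grouped with the medial genes. The members were chosen by gene symbol, and each of the 7 matched 1 array feature among the 10117 named genes tested. In both groups Yki, the transcriptional coactivator that drives growth when Hippo signalling is low, was expressed by the apterous (ap) driver. This driver acts in dorsal cells of the disc, to which the notum belongs. The first group, labelled ap>YAP/Yki and here called Yki, had 3 arrays. The second, labelled ap>YAP/Yki+dTcf/Pan-RNAi and here called pan RNAi, had 3 arrays from discs in which the same driver also expressed RNA interference against pan, the gene of the Wnt pathway's DNA-binding factor dTcf. All discs were dissected 7 days after transgene induction, and the labels give no number of discs or larvae per sample. No group without Yki and no control hairpin is named in the titles, and pan itself was not analysed here.

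The notum is divided along its medial to lateral axis by transcription factors that respond to secreted signals. Dpp, a BMP-type ligand, promotes expression of pnr medially, and EGFR signalling promotes expression of the Iroquois genes laterally. These factors in turn set the positions at which the proneural genes ac and sc begin the development of sensory bristles, and the Iroquois genes are also needed to keep the notum distinct from the wing hinge. The comparison asks how the levels of both sets of genes differ in Yki-expressing discs when dTcf is depleted.

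Values are the authors' log2 levels, n = 3 arrays per group, and changes are pan RNAi minus Yki. Each change has its standard error (SE) from a limma fit over all 11303 features tested, with p-values adjusted over all of them by the Benjamini-Hochberg method. The verbs rose and fell are kept for genes with an adjusted p under 0.05. The array medians lay between 8.41 and 8.52, and the first quartiles between 6.75 and 6.85, so the lowest value of any member, 7.18 for pnr, stood above the dimmest 25% of the features. Levels of different genes come from different probes and were not compared with each other.

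Of the 7 members, 6 fell and 1 rose. The medial genes pnr and tup and the scutum gene eyg fell to about 21.2% to 33.6% of their level in the Yki group. The 3 Iroquois genes fell to 58.0% to 76.7%, and ush rose to 151%. Across all features 13.4% fell, 12.1% rose and 25.5% passed in either direction. Of the features that passed, 47.4% were higher with pan RNAi, and 65.8% with each array centred on its median. With the further threshold of a 2-fold change, pnr, tup and eyg were called lower, as were 1.27% of all features (1.53% in either direction). The groups did not overlap for any of the 7 members, nor for 44.9% of all features. The median change was −1.63 over the 4 genes grouped as medial and −0.55 over the 3 lateral genes, against 0.03 over all features. In whole discs a lower level can come from fewer cells of a type or from less RNA per cell, and these cannot be told apart.

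**Figure D1:**
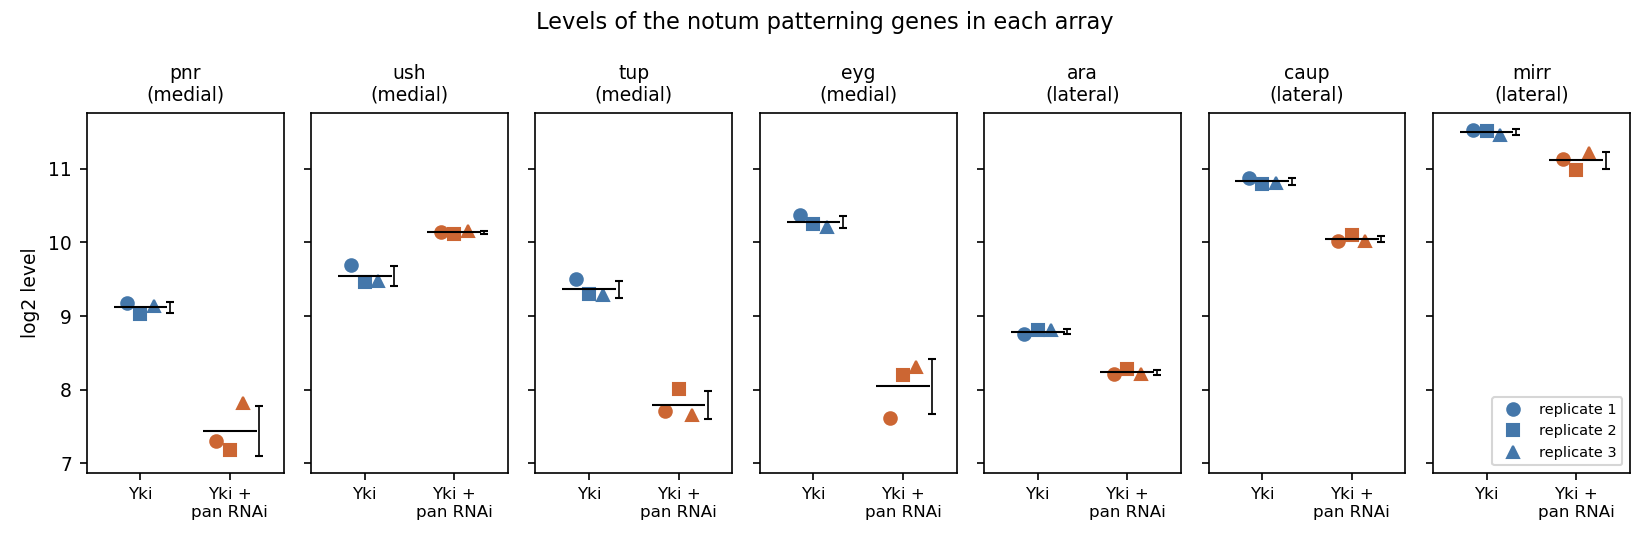
The log2 level of each of the 7 genes is plotted for every array, Yki in blue and pan RNAi in orange, with the marker shape giving the replicate number, a line for the group mean and a bar for the SD (n = 3). The pan RNAi arrays lie below the Yki arrays for every gene except ush, for which they lie above, and they are most spread for eyg and pnr.

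Of the genes grouped here as medial, eyg changed most. It encodes a Pax-family factor required for the development of the scutum, the large anterior plate of the notum. Its level was 10.37, 10.25 and 10.21 in Yki replicates 1 to 3 and 7.62, 8.20 and 8.31 in pan RNAi replicates 1 to 3. Every pan RNAi array was at least 1.91 below every Yki array, and replicate 1 was the lowest of them. The change was −2.24 ± 0.17 (SE), a 4.71-fold fall (adjusted p = 0.000561 in limma), which left 21.2% of the Yki level (95% interval 16.0% to 28.1%). By size of fall eyg ranked 12 among the 10117 named genes.

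The GATA-family factor encoded by pnr activates proneural genes in the medial notum. Its level was 9.18, 9.03 and 9.14 in the Yki arrays and 7.30, 7.18 and 7.82 in the pan RNAi arrays. Replicate 3 was the highest pan RNAi array, as it was for eyg. For pnr this array stood apart from the others, and for eyg replicate 1 stood apart as the lowest. The level of pnr fell 3.21-fold (−1.68 ± 0.16, adjusted p = 0.00106), to 31.2% of that in the Yki group (24.0% to 40.6%). The change was −1.88 without pan RNAi replicate 3 and −1.55 without replicate 2. The gap of 1.21 between the groups exceeded the range of 0.64 among the pan RNAi arrays.

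The LIM-homeodomain factor encoded by tup, the fly Islet, also acts in the medial notum, where it can restrain Pnr. Its level was 9.50, 9.30 and 9.29 in the Yki arrays and 7.71, 8.01 and 7.66 in the pan RNAi arrays. Here replicate 2 was the highest of the pan RNAi arrays, so the array with the least lowered level differed between pnr and tup. The level of tup fell 2.98-fold (−1.57 ± 0.11, adjusted p = 0.000384), to 33.6% (28.2% to 40.0%). Among the falls of named genes pnr ranked 32 and tup 40.

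In contrast to these, ush rose. It encodes a FOG-family zinc-finger protein that binds Pnr and counteracts its activation of proneural genes. Its level was 9.70, 9.46 and 9.48 in the Yki arrays and 10.14, 10.12 and 10.16 in the pan RNAi arrays. The pan RNAi arrays spanned 0.04, and Yki replicate 1 was the highest of its group. The rise was 0.59 ± 0.07 (1.51-fold, adjusted p = 0.00233), and it ranked 134 among the rises of named genes. Without Yki replicate 1 the rise was 0.67, and without Yki replicate 2 it was 0.55.

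The spread between arrays differed within this set. The SD among the pan RNAi arrays was 0.37 for eyg, 0.34 for pnr and 0.19 for tup, against 0.08, 0.08 and 0.12 among the Yki arrays. The pooled SD of eyg was larger than that of 97.5% of all features, and that of pnr larger than that of 96.9%. For ush the order of the SDs was the other way, 0.02 with pan RNAi and 0.13 without. No test of a difference in spread was made with 3 arrays per group.

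The 3 Iroquois genes encode related homeodomain factors of the TALE class, and all fell by less than 2-fold. For caup the level was 10.88, 10.80 and 10.81 in the Yki arrays and 10.02, 10.10 and 10.02 in the pan RNAi arrays. The arrays of each group lay within 0.09 of each other, and the groups were 0.70 apart. This gave a change of −0.79 ± 0.05 (1.72-fold, adjusted p = 0.00032), the lowest adjusted p of the 7 members, with 58.0% of the level left (53.5% to 62.9%).

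For ara the level was 8.75, 8.81 and 8.81 without and 8.21, 8.28 and 8.21 with pan RNAi. The groups were again tight and apart, with ranges of 0.06 and 0.07. The change was −0.55 ± 0.05 (1.47-fold, adjusted p = 0.00069), which left 68.1% (63.1% to 73.5%). For mirr, which acts in the lateral notum and also in the dorsal eye, the level was 11.53, 11.51 and 11.46 without and 11.14, 10.99 and 11.22 with pan RNAi. The lowest Yki array was 0.24 above the highest pan RNAi array, replicate 3. The change of −0.38 ± 0.07 (1.30-fold, adjusted p = 0.00789) was the smallest of the 7, and 76.7% of the level was left (68.8% to 85.5%).

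**Figure D2:**
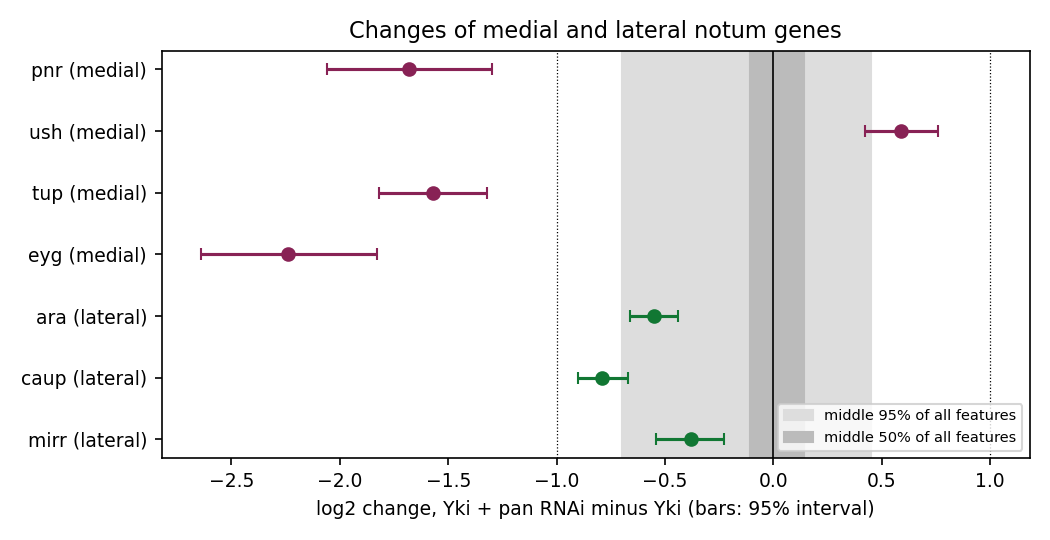
The log2 change of each gene (pan RNAi minus Yki) is plotted with its 95% interval, genes grouped as medial in purple and lateral genes in green. The light band holds the middle 95% of all features (−0.70 to 0.45) and the dark band the middle 50% (−0.11 to 0.14). The intervals of pnr, tup and eyg lie wholly below −1, shown by a dotted line, and those of ara, caup and mirr wholly above it.

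Medial genes, with the scutum gene eyg counted among them, and lateral genes were set against each other by the difference of their changes, taken array by array. Each of the falls of pnr, tup and eyg was larger than each of the 3 Iroquois falls, with differences (medial minus lateral change) from −0.79 ± 0.09 (SE) for tup and caup to −1.85 ± 0.23 for eyg and mirr. For ush the same difference was 0.98 to 1.38. In all 12 medial and lateral pairs the difference between the 2 log2 levels did not overlap between the groups. The two-sided exact permutation p over the 6 arrays was 0.1 for each pair (adjusted p = 0.1 over the 12 pairs), which is the smallest that this test can give with 3 against 3 arrays, so it could not reach 0.05. These 12 pairs were added after the values were seen.

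Within each set the changes were not uniform. Among the Iroquois genes the change of caup minus that of mirr was −0.40 ± 0.10 (SE), and that of ara minus that of caup was 0.23 ± 0.05, with no overlap between the groups in either difference (exact permutation p = 0.1 for each, adjusted p = 0.14 over 7 pairs). The difference between the changes of ara and mirr, −0.17 ± 0.10, overlapped between the groups (exact permutation p = 0.2, adjusted p = 0.233), and was −0.26 without pan RNAi replicate 2 and −0.11 without pan RNAi replicate 3. Among the medial genes, pnr and its binding partner ush differed in change by −2.28 ± 0.19, and ush and tup by 2.17 ± 0.12 (exact permutation p = 0.1 and adjusted p = 0.14 for both). The change of pnr minus that of eyg was 0.55 ± 0.22 (exact permutation p = 0.1, adjusted p = 0.14). The changes of pnr and tup differed by −0.11 ± 0.29 (exact permutation p = 0.7), and the sign of this difference turned to 0.13 without pan RNAi replicate 2.

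Genes with the nearest pattern were found by the root mean square difference between mean-centred log2 levels over the 6 arrays, among 10116 other named genes. For pnr these were the sulfotransferase gene St2 (difference 0.10, change −1.62) and Fkbp14 (0.13, change −1.56), whose product folds proteins in the endoplasmic reticulum. Both shared with pnr a pan RNAi replicate 3 above the other pan RNAi arrays. For eyg they were betaTub60D, a tubulin gene (0.18, change −1.91), and the Notch-responsive E(spl)m6-BFM (0.19, change −1.95), and in both pan RNAi replicate 1 was lowest, as in eyg. For tup they were CG31955 (0.07) and dy (0.12), which encodes a membrane protein of the wing epidermis.

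The nearest patterns to those of the Iroquois genes were CG7675 and CG43658 for ara (0.03 each), the amino acid transporter subunit gene CD98hc (0.03) and CG18547 (0.04) for caup, and CG43252 (0.03) and CG17219 (0.04) for mirr. For ush they were jigr1 (0.04) and CG34300 (0.05), with rises of 0.58 and 0.60. None of the 7 members was among the 2 nearest genes of another member. The closest pair of members was ara and caup (0.12), where caup ranked 311 for ara and ara ranked 88 for caup. Of the genes grouped as medial, pnr and tup were 0.30 apart, and eyg was 0.35 from pnr.

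**Figure D3:**
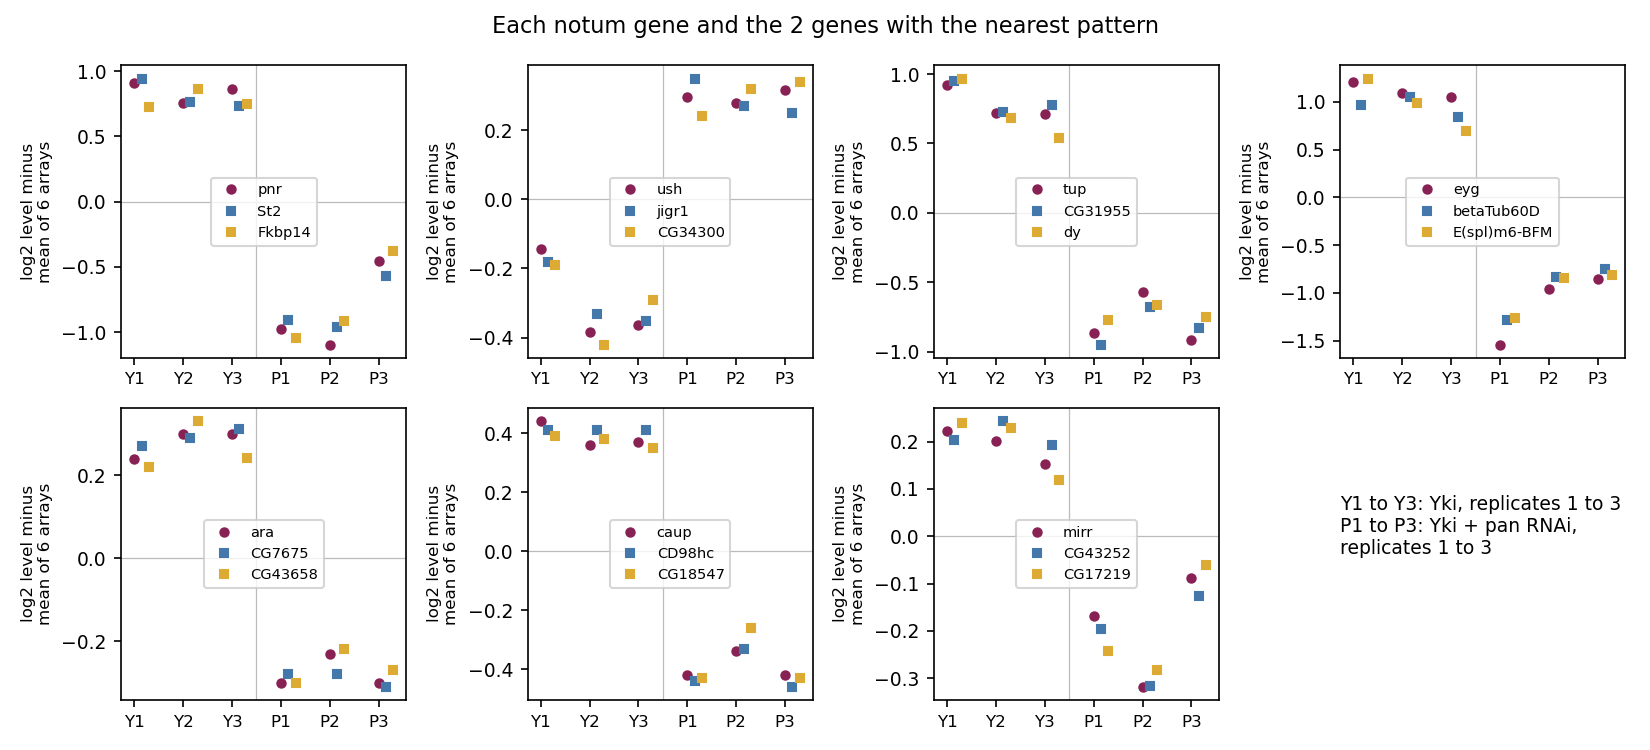
For each of the 7 genes, purple points give its log2 level minus its mean over the 6 arrays, and squares give the same for the 2 genes with the nearest pattern, Yki arrays (Y1 to Y3) left of the grey line and pan RNAi arrays (P1 to P3) right of it. The vertical scale differs between panels. St2 and Fkbp14 are highest among the pan RNAi arrays in P3, as is pnr, and betaTub60D and E(spl)m6-BFM are lowest in P1, as is eyg.

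The members' neighbours on the chromosome were read from the RefSeq gene order, which served for order alone, since no source used here gives the arrays' genome build. No protein-coding gene lies between ara and caup or between caup and mirr, and eyg lies on the same arm with 22 genes between it and ara. Of these 22 genes, 15 were measured under their names, 6 of which fell and 2 rose. That is 53.3% past the adjusted p, where 25.5% of all features passed. Among the 15, CG10663, separated from eyg by 2 genes, was alone in changing at least 2-fold (−1.21 ± 0.12, adjusted p = 0.00124). Beside the Iroquois genes, sowah rose by 0.30 ± 0.06 next to ara (adjusted p = 0.0142), and SmD1 on the other side changed by −0.14 ± 0.05 (adjusted p = 0.105). The paralog of eyg, toe, is adjacent to it and had no value under that name. Over all members, 14 of 38 measured neighbours within 5 genes passed the adjusted p (36.8%), 10 lower and 4 higher. The GATA gene next to pnr, GATAe, was at 6.92 without and 6.99 with pan RNAi (adjusted p = 0.704).

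**Figure D4:**
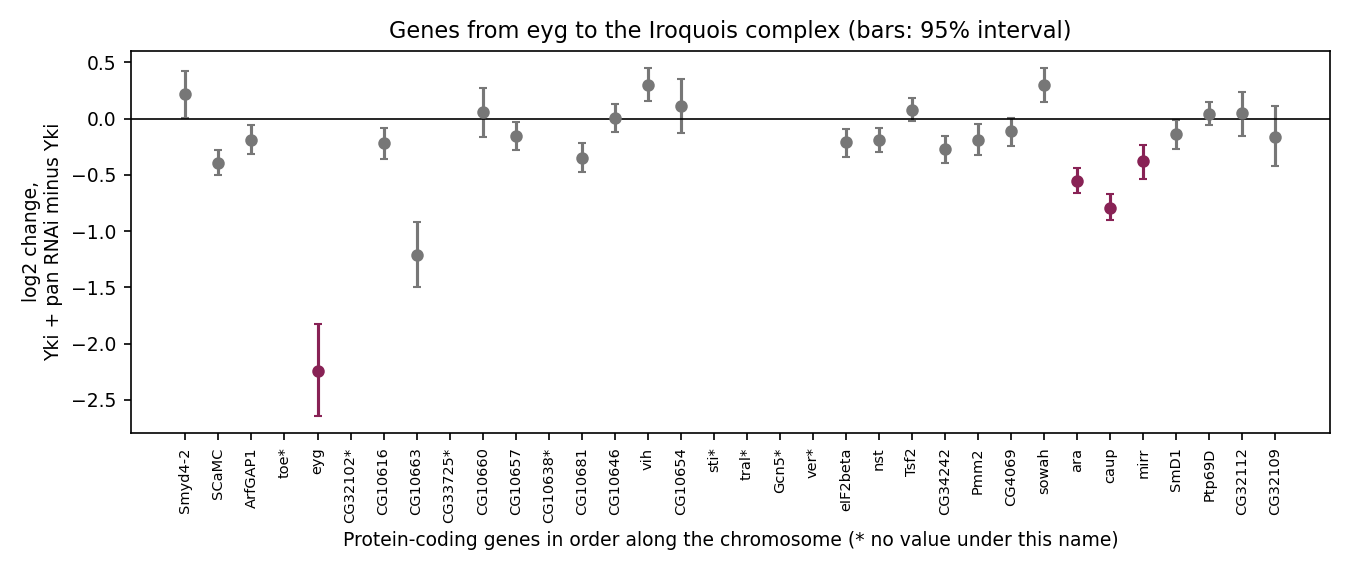
Log2 changes (pan RNAi minus Yki) with 95% intervals are plotted for protein-coding genes in chromosomal order from 4 genes before eyg to 4 beyond mirr, the members in purple, and genes marked with an asterisk had no value under their name. CG10663 (−1.21) lies nearest in size to eyg (−2.24), and sowah, next to ara, lies above 0.

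Of 4 measured partners of Pnr, 1 rose and 0 fell, with a median change of 0.10. This share is read beside the 12.1% of all features that rose, and is close to the 25.5% that passed in either direction. Chi and Ssdp, which join DNA-bound factors into a complex with Pnr and the proneural proteins, had changes of 0.08 ± 0.05 (adjusted p = 0.253) and 0.13 ± 0.05 (adjusted p = 0.0942). The chromatin remodelling gene osa, which can oppose this complex, rose by 0.23 ± 0.04 (adjusted p = 0.00982). The corepressor gene CtBP had a change of 0.06 ± 0.06 (adjusted p = 0.491).

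The Dpp pathway acts upstream of pnr. Where 12.1% of all features rose and 25.5% passed in either direction, 5 of 12 measured genes of this pathway rose and 0 fell. The median of the 12 was 0.12. After median centring 7 rose. The ligand gene dpp rose from 9.51 ± 0.04 (SD) to 9.82 ± 0.06 (0.32 ± 0.05 SE, adjusted p = 0.00658), the receptor gene tkv by 0.28 ± 0.04 and the target genes bi and salr by 0.63 ± 0.05 and 0.41 ± 0.07. In the EGFR pathway, upstream of the lateral genes, 2 of 7 measured genes rose and 0 fell (median 0.07). This share is read beside the 12.1% of all features that rose, and is close to the 25.5% that passed in either direction. The 2 that rose were the receptor gene Egfr (0.37 ± 0.04, adjusted p = 0.00218) and the ligand gene spi (0.40 ± 0.06). The target gene aos, a feedback inhibitor, had a change of 0.27 ± 0.13 (adjusted p = 0.155) and edl one of −0.14 ± 0.05 (adjusted p = 0.0737). The genes vn, rho, Ras85D and pnt had no value under their names, and vn encodes the EGFR ligand of the notum.

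Downstream of the notum factors, 6 of 10 proneural and bristle genes fell and 0 rose, with a median of −0.27. Across all features 13.4% fell and 12.1% rose. The proneural genes sc and ac changed by −1.12 ± 0.07 (2.17-fold) and −1.15 ± 0.11, both expressed in the notum and at the wing margin. The falls of phyl (−0.59 ± 0.10) and sens (−0.39 ± 0.07), which act in sensory organ precursors, were smaller. For emc, an inhibitor of proneural proteins, the change was −0.28 ± 0.05 (adjusted p = 0.0103).

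Other regulators of the notum and body wall went both ways. Of 8 measured, 5 fell and 3 rose, with a median of −0.30. The 2-fold threshold was also passed by 4 of the 8, and by 1.53% of all features. After median centring, and with any 1 array left out, 4 fell. The Bar homeobox genes B-H1 and B-H2, active in the anterior notum, changed by −1.03 ± 0.13 and −1.02 ± 0.10, and sr, which specifies tendon cells of the notum, by −0.61 ± 0.10. Doc3 (0.99 ± 0.06), tsh (1.06 ± 0.07) and its paralog tio (1.25 ± 0.09) rose, tsh and tio being zinc-finger genes of the hinge and notum. The paralogs of Doc3 went the other way, Doc1 by −0.40 ± 0.06 and Doc2 by −0.20 ± 0.05. Of 8 wing pouch and hinge genes, 6 fell and 2 rose (median −0.86). The 2 that rose, Sox15 (1.29 ± 0.05) and zfh2 (0.75 ± 0.04), are genes of the hinge, and nub and dve, at −1.12 ± 0.09 and −1.08 ± 0.07, are genes of the pouch. The shares of fallen and risen genes in these lists are read beside 13.4% and 12.1% of all features.

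**Figure D5:**
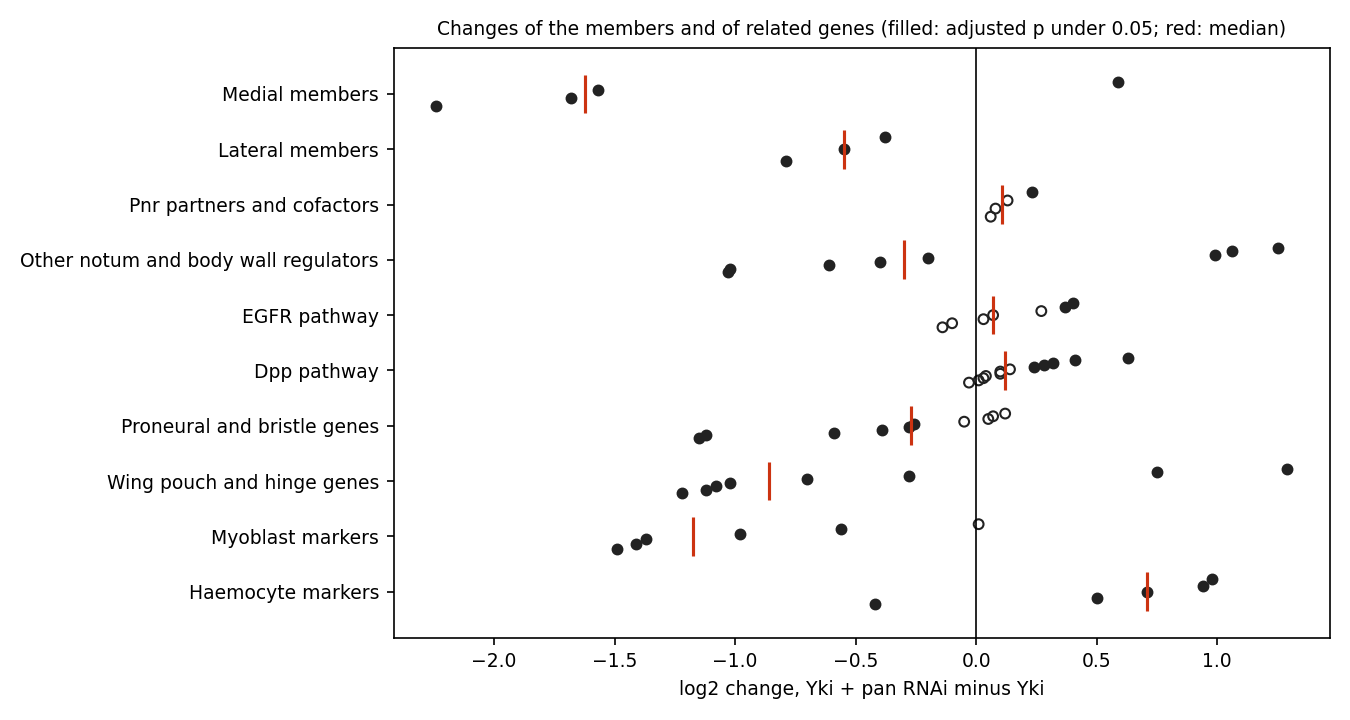
Each point is 1 gene's log2 change (pan RNAi minus Yki), filled at an adjusted p under 0.05 and open otherwise, with a red line at the list's median. The medial members, myoblast markers and pouch genes hold most of the changes below −1, and the Dpp and EGFR lists lie near or above 0.

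Some markers of other cell types also differed between the groups. The notum epithelium lies over the adult muscle precursors, or myoblasts. Where 13.4% of all features fell, 5 of 6 measured myoblast markers did. They were kon (−1.49 ± 0.07), zfh1 (−1.41 ± 0.07), htl (−1.37 ± 0.06), twi (−0.98 ± 0.08) and Him (−0.56 ± 0.10), while kirre had a change of 0.01 ± 0.07 (adjusted p = 0.935). The mean level of kirre was 6.66 without and 6.67 with pan RNAi, and that of htl was 6.29 with pan RNAi. These means lay below the first quartiles of the arrays (6.75 to 6.85), among the dim features. The mean log2 level of the 6 markers was 8.37 to 8.47 in the Yki arrays and 7.40 to 7.51 in the pan RNAi arrays. Their part in the falls of pnr, tup and eyg was not tested. Of 5 measured haemocyte markers 4 rose, where 12.1% of all features did, among them Hml (0.94 ± 0.13) and Sr-CI (0.98 ± 0.19), and Col4a1 fell (−0.42 ± 0.10). The 5 markers averaged 6.99 to 7.23 in the Yki arrays and 7.51 to 7.70 in the pan RNAi arrays. Haemocytes also express ush, and the part of these markers in its rise was not tested.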

How the data were processed

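Wing disc RNA labelled with biotin was measured on 6 single-channel arrays, grouped by the sample titles. The values are gene-level log2 levels as deposited by the authors in 2 tables of 11325 features that differ by at most 5e-09. Per the labels' design text the submitters used limma, with thresholds of 0.05 on the adjusted p and 1 on the log2 fold change. The methods of background correction, normalization and probe summary were not stated in the sources used here. No feature had fewer than 3 arrays at or above 5.91.

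Of the 10156 features with 1 symbol, 17 carried several FlyBase numbers and were left unnamed. The others were named from the platform annotation, and 9975 were matched by Entrez number in the RefSeq gene table of Release 6. For 22 genes with several features the brightest was kept, which left 11303 features. Groups were compared with limma 3.58.1 in R 4.3.3 (lmFit, eBayes, Benjamini-Hochberg), and differences between members' changes with exact permutation tests. The code was tested on simulated data. The members, lists and rules were chosen with earlier results of these data known. The genes named are the 7 members, up to 4 genes per related list by lowest p, the 2 nearest patterns per member, and neighbours in gene order. The neighbours were added after the values were seen, as were B-H1, sr, Doc1, Doc2, emc and the marker genes named. No sequences were at hand for the members. Nothing states that samples came from separate crosses, so p-values reflect only how far these samples differ, possibly for technical reasons, and the number of arrays limits precision.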

Additional observations from a re-analysis of the deposited data

How the results depend on the processing

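All 7 members kept their direction and an adjusted p under 0.05 in limma under each of 14 alternatives, namely median centring, quantile normalization, dim features left out, replicate block, eBayes with a trend, array weights, the other deposited table, all features kept, and each array left out in turn. The highest adjusted p was 0.0323, for mirr. Leaving out 1 array gave changes of −2.37 to −2.03 for eyg, −1.88 to −1.55 for pnr and −0.43 to −0.32 for mirr. The count of features past the adjusted p, 2887, was 1744 to 2435 with 1 array left out, namely 1744 without pan RNAi replicate 1, 1815 without Yki replicate 2 and 1810 without Yki replicate 3, and 2159 with the replicate number as a block. The replicate block cannot alter the fitted changes in this balanced design (−2.24 for eyg), and the members' adjusted p with it was 0.00413 to 0.0267. Deviations from the group means of same-numbered arrays correlated at −0.127, −0.098 and 0.162 across features. Those of differently numbered arrays correlated at −0.281 to 0.345. With 3 arrays per group these deviations are tied to each other, so they cannot decide whether the replicate numbers pair the arrays. The share of higher genes among those past the adjusted p was 47.4%, and 65.8% with each array centred on its median. The difference between the changes of pnr and tup was −0.37 to 0.13 with 1 array left out, the latter without pan RNAi replicate 2, and the cause was not tested. Fallen genes numbered 4 in place of 5 among other notum regulators (median centring and any 1 array left out), 5 in place of 6 among pouch and hinge genes (replicate block, or without Yki replicate 1, Yki replicate 2 or pan RNAi replicate 1) and 5 in place of 6 among proneural genes (without Yki replicate 1 or 3, or pan RNAi replicate 2 or 3). Risen genes of the Dpp list numbered 7 in place of 5 after median centring and 6 with quantile normalization, dim features left out, the trend or array weights. In the EGFR list 3 genes rose without Yki replicate 1, 1 gene fell with dim features left out, with an intensity trend or with array weights, 2 Pnr partners rose with the trend, and 1 proneural gene rose after median centring. With 3 arrays per group, exact tests of single differences cannot go below p = 0.1.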

Other observations

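Markers of the wing disc itself were present in all arrays, with a mean log2 level over vg, nub, ap and rn of 10.44 to 10.48 in the Yki arrays and 9.91 to 10.10 in the pan RNAi arrays. Of these 4, ap, the selector gene of dorsal cells, rose (0.37 ± 0.04 SE) and nub, rn and vg fell. The list of 4 shares nub, rn and vg with the pouch genes above. Antp, a homeotic gene of the thorax, fell by 0.56 ± 0.08 (adjusted p = 0.00443 in limma). Of Antp and the homeotic genes Scr and Dfd, 2 fell and 0 rose. The mean level of Scr, the other that fell, was 6.78 without and 6.40 with pan RNAi.

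Of the tracheal markers, 3 of 5 fell, Gasp most (−0.64 ± 0.06). Of the eye-antennal disc markers, 1 of 5 rose, dac (0.58 ± 0.06), and 1 fell, ey, whose mean level was 5.93 without and 5.71 with pan RNAi. Every feature had at least 3 arrays at or above 5.91, a level that ey reached only in the Yki group. The pan RNAi arrays of ey lay at 5.59 to 5.80, so its fall is not read as a result. Of 2 measured dorsal vessel markers 1 fell, mid (−0.63 ± 0.13). Of 4 markers of neurons and glia 1 rose, elav (0.25 ± 0.05). The shares of fallen and risen markers in this section are read beside 13.4% and 12.1% of all features. Genes outside the naming rule were chosen after their values were seen.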
